A study of Mus musculus with 10 samples.

Results

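The genes described here are 10 factors by which astrocytes are known to build, adjust or remove synapses: Sparc, Sparcl1, Gpc4, Gpc5, Gpc6, Thbs1, Thbs2, Thbs4, Megf10 and Mertk. They were taken by their symbols, and all 10 were among the 18464 genes of the table. RNA was measured in 5 libraries of an astrocyte fraction and 5 libraries of input, each pair sharing 1 of the title numbers 88, 92, 976, 981 and 982. The tissue of both groups was ventral midbrain (SNpc/VTA: the ventral tegmental area with the pars compacta of the substantia nigra). All mice were naive and of the Aldh1l1-NuTRAP strain, in which a ribosome tag is made in cells that use the Aldh1l1 promoter. The astrocyte fraction is the RNA pulled down with those ribosomes, and the input is RNA of all cell types before the pull-down. Every library was built from 25 ng of total RNA. The age and sex of the mice, any agent that starts the tag, and whether a number is 1 animal were not stated in the labels, so the p-values here speak only of spread among these libraries, which may be technical.

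Astrocytes shape synapses with secreted proteins and with receptors for engulfment. Hevin, the product of Sparcl1, is a secreted matrix protein that promotes excitatory synapses by bridging adhesion proteins across the synaptic cleft, and its relative SPARC counters it. Glypicans are heparan sulfate proteoglycans on a lipid anchor. Shed glypican 4 and glypican 6 bring AMPA-type glutamate receptors to young synapses. Thrombospondins are secreted multimers that start synapse formation through the calcium channel subunit alpha2delta-1, the product of Cacna2d1. MEGF10 and MERTK are phagocytic receptors with which astrocytes take up synapses, and MERTK belongs to the TAM receptor kinases together with AXL and TYRO3.

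Most of these transcripts were enriched on astrocyte ribosomes, and both SPARC genes were far more abundant than the rest. Of the 10 genes, 8 were called higher in the astrocyte fraction, 0 lower and 2 (Thbs1 and Thbs4) not called, by edgeR's quasi-likelihood test at a Benjamini-Hochberg adjusted p under 0.05. Over all 17672 tested genes 33.1% were called higher, 37.5% lower and 29.4% neither. Of all calls 46.9% were higher, and 34.0% with libraries scaled to total counts. The count of 0 lower also held at an unadjusted p under 0.05, with DESeq2 and with limma on the authors' values. Without the fraction library 976, or without numbers 976 and 982, 1 (Thbs1) was lower, against 36.1% and 32.8% of tested genes. These fits leave the title number out. With it as a block 9 were higher, Thbs4 among them, against 33.3% of tested genes. In the main fit the median log2 fold change (astrocyte fraction minus input) of the 10 genes was 2.03, and that of all tested genes was -0.06. In 8 of the 10 the groups did not overlap and the fraction was higher, which held for 27.2% of tested genes. Enrichment was strongest for Gpc5 and Sparc, and weakest among called genes for Gpc6. For any gene, fewer cells of a type and less RNA per cell cannot be told apart in such bulk RNA.

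**Figure D1:**
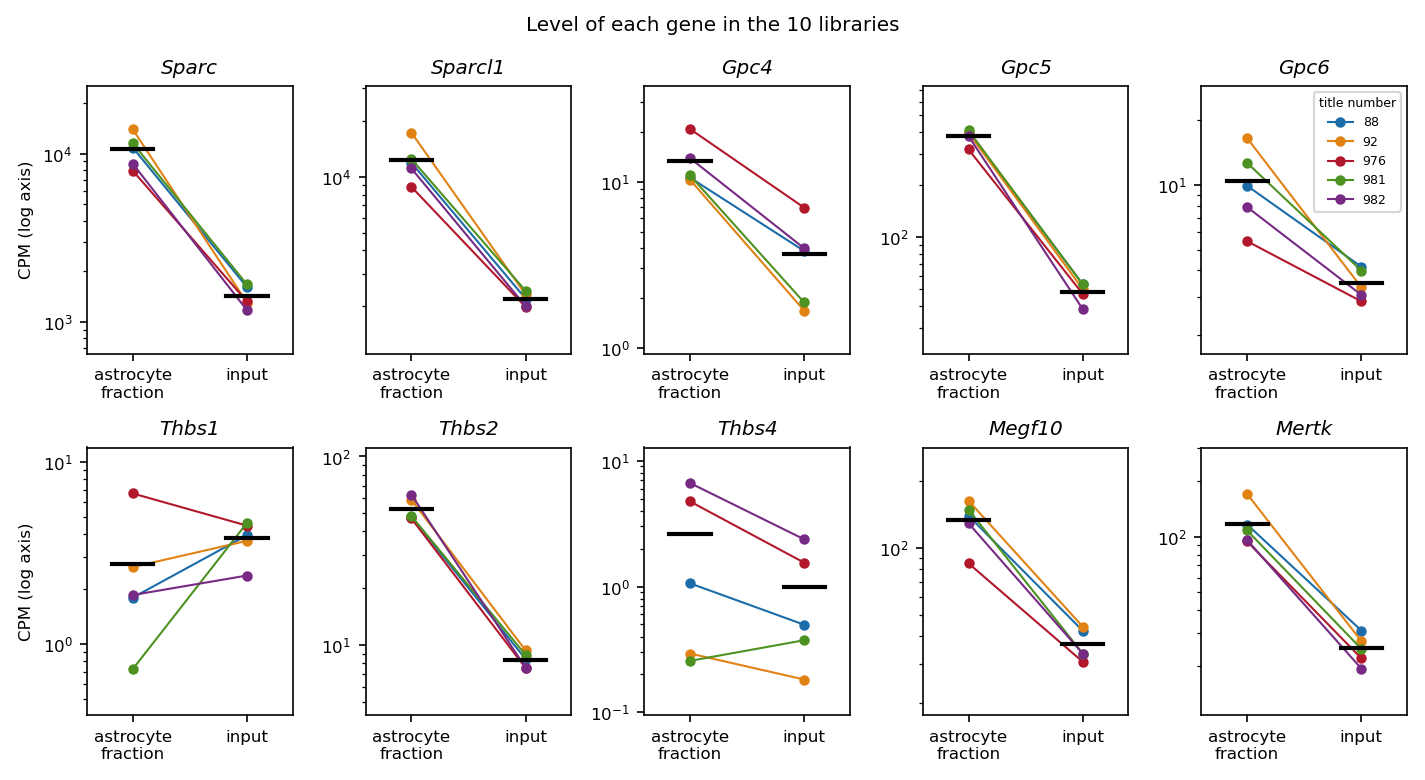
CPM (counts scaled to library size, log axis) of the 10 genes in each library, with the astrocyte fraction left and the input right in each panel. Points are libraries, lines join libraries of the same title number and black bars are means of 5; in 8 panels every fraction library lies above every input, while Thbs1 and Thbs4 overlap.

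The fraction was described with marker lists of each cell type. The lists were chosen with earlier results of these data known, so they are no independent check. The astrocyte list includes Aldh1l1, whose promoter makes the tag. All 12 astrocyte markers were higher, with log2 fold changes between 2.65 and 3.4. All 12 neuron, 8 oligodendrocyte, 6 oligodendrocyte precursor and 8 microglia markers were lower, with medians of -2.40, -3.83, -3.19 and -3.90. Of 8 endothelial markers 3 were lower and 5 not called (1 lower without the fraction library 976 or without 976 and 982, and 6 when scaled to total counts). Mural and fibroblast markers split into 2 higher, 5 lower and 1 without a call. Over all tested genes 33.1% were higher, 37.5% lower and 29.4% not called, so the endothelial count called lower is near the share over all genes. Fraction library 92 had 3845554 expected counts, and the remaining 4 of its group 24479136 to 26924406, against 21812193 to 30878894 in the inputs. No marker tested was at 0 in every library of either group. Numbers 976 and 982 carried transcripts of choroid plexus, which secretes cerebrospinal fluid. The summed level of 7 choroid plexus and ependymal markers was 11873 CPM in the astrocyte fraction library 976 and 2474 CPM in 982, against 3164 and 682 CPM in their inputs. In the other numbers the sum was 22.9 to 40.4 CPM in the astrocyte fraction and 15.7 to 28.1 CPM in the input. Of these 7 markers 0 were called by edgeR (0 at an unadjusted p under 0.05, and 0 with DESeq2 or limma). With the title number as a block 2 were higher and 3 lower, near the 33.3% and 38.7% of all tested genes under that setting.

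Promoter sequences are shown for 3 enriched genes, 1 each of the glypicans (Gpc5), thrombospondins (Thbs2) and engulfment receptors (Mertk), and for Thbs4 as a gene that was not called. They come from RefSeq (GRCm38.p6) and run from 250 bases before to 50 bases after the start. Entries matched 6 of the 10 genes, Sparc, Gpc4, Gpc5, Thbs2, Thbs4 and Mertk. Capitals mark matches on either strand to 6 motifs: the TATA box TATAAA, the CCAAT box CCAAT, the GC box GGGCGG, the AP-1 motif TGANTCA, the STAT motif TTCNNNGAA and the palindromic NFI motif by its name.
Gpc5 promoter (chr14:115091965-115092264, plus strand): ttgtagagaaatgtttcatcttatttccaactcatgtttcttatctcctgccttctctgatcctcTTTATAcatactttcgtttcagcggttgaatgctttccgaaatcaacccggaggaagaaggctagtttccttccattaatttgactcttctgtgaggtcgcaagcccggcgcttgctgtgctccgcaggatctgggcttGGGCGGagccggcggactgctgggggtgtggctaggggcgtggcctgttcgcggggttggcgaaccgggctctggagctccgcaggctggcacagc
Thbs2 promoter (chr17:14694213-14694512, minus strand): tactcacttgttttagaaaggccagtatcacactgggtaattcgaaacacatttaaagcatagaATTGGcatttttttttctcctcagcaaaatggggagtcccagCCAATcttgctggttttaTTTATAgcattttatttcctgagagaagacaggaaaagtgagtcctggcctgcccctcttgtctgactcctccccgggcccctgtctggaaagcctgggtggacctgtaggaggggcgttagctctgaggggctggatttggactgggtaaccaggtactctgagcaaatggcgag
Thbs4 promoter (chr13:92794769-92795068, minus strand): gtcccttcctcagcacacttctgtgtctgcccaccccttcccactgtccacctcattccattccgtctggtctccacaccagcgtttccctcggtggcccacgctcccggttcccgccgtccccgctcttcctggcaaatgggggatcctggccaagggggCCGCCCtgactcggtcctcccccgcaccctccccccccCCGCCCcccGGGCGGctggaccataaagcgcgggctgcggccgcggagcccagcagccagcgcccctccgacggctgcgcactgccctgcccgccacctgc
Mertk promoter (chr2:128698665-128698964, plus strand): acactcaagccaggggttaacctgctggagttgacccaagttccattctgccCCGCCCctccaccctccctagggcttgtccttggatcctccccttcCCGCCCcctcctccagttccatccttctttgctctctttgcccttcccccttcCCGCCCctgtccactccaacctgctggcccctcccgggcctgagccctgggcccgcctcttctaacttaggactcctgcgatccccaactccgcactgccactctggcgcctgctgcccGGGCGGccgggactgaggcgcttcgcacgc

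These windows differed in their motifs. The GC box was in 4 of the 6 windows (Gpc4, Gpc5, Mertk and Thbs4), with 4 matches in Mertk and 3 in Thbs4, and in 35.7% of all 32851 promoter windows. TATAAA was in those of Gpc5 and Thbs2, both times as its reverse complement TTTATA, and on either strand in 13.6% of all windows. Neither match reads TATAAA in the direction of the gene, and distance to the start was not part of a match. Thbs2 alone of the 6 had the CCAAT box, with 2 matches, and 37.4% of all windows held it. No match to TGANTCA, TTCNNNGAA or the NFI motif lay in these 6 windows, against 7.81%, 8.30% and 0.0365% of all windows. The share of G and C was 54.7% in Gpc5, 48.3% in Thbs2, 72.0% in Thbs4 and 66.0% in Mertk, with a median of 52.7% over all windows.

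Sparcl1 and Sparc were among the most abundant transcripts of the fraction. Sparcl1 (ENSMUSG00000029309, mm10 chromosome 5, 104079111 to 104113733, minus strand) encodes hevin. It stood at 11903, 17298, 8820, 12477 and 11085 CPM in the astrocyte fraction libraries 88, 92, 976, 981 and 982, against 2202, 2317, 1984, 2427 and 2006 CPM in the inputs of the same numbers. Every fraction library lay above every input, with number 92 highest and 976 lowest in the fraction. The means were 12317 ± 3113 CPM in the fraction and 2187 ± 193 CPM in the input (SD, n = 5 each), a log2 fold change of 2.49 ± 0.17 (SE, edgeR adjusted p = 1.35e-08). Sparcl1 took 1.11 ± 0.259% of all counts in the fraction and 0.241 ± 0.0195% in the input. By counts it ranked between 1 and 5 among all genes of a fraction library, and between 9 and 17 in an input.

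Sparc (ENSMUSG00000018593, chromosome 11, 55394500 to 55423183, minus strand) encodes the collagen-binding matrix protein that opposes hevin. It stood at 10875, 13955, 7923, 11549 and 8722 CPM in the fraction libraries 88, 92, 976, 981 and 982, against 1612, 1303, 1324, 1670 and 1176 CPM in the inputs. Again every fraction library was above every input. The log2 fold change was 2.90 ± 0.17 (adjusted p = 5.52e-09), a 7.48-fold enrichment that lay inside the range of the astrocyte markers. Both SPARC genes together took 2.07 ± 0.451% of the counts in the fraction and 0.398 ± 0.0417% in the input.

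Sparc was more enriched than Sparcl1. The log2 ratio of Sparcl1 to Sparc within a library was 0.21 ± 0.11 in the fraction and 0.63 ± 0.16 in the input (SD, n = 5 each). The difference, -0.42 ± 0.09 (SE), had an exact two-sided permutation p = 0.00794, the smallest that 5 against 5 libraries can give, and 0.0212 after adjustment over the 8 pairs compared within families. Paired by title number it was negative in 5 of 5, at an adjusted exact permutation p = 0.0714, since 5 pairs cannot go below 0.0625 unadjusted. The ratio ran from 0.11 to 0.35 in the fraction and from 0.45 to 0.83 in the input, without overlap. In both groups Sparcl1 remained the more abundant per length of exon. It had 4194 ± 1060 CPM per kb in the fraction and 745 ± 65.6 in the input, and Sparc had 2800 ± 632 in the fraction and 374 ± 56.3 in the input. The ranges of both genes overlapped in the fraction and not in the input. The length used was the union of all annotated exons, 3788 bases over 9 transcripts for Sparc and 2937 over 2 for Sparcl1. A shorter main transcript would raise the level of Sparc per kb, and transcript use was not tested.

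Gpc4, Gpc5 and Gpc6 were higher in the fraction under every setting tried, with Gpc5 far ahead in level. Gpc5 (ENSMUSG00000022112, chromosome 14, 115092215 to 116525179, plus strand) encodes glypican 5. It stood at 397, 397, 318, 409 and 380 CPM in the fraction libraries 88, 92, 976, 981 and 982, against 53.6, 50.2, 47.2, 53.5 and 38.6 CPM in the inputs. These groups lay far apart, and the fraction libraries other than 976 were close to each other. Its log2 fold change of 2.96 ± 0.11 (adjusted p = 1.29e-10) was the largest of the 10 genes and above that of 98.9% of tested genes. Within each number the difference was between 2.75 and 3.29 on the log2 scale.

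Gpc4 (ENSMUSG00000031119, chromosome X, 52053021 to 52165252, minus strand) encodes glypican 4, which acts on AMPA receptors. It stood at 10.6, 10.3, 20.7, 10.9 and 13.8 CPM in the fraction libraries 88, 92, 976, 981 and 982, against 3.82, 1.67, 6.97, 1.87 and 3.97 CPM in the inputs. Number 976 was highest in both groups, followed by 982, which are the numbers with choroid plexus transcripts. In the input, however, 982 and 88 were close, with 112 and 123 counts. The log2 fold change was 1.85 ± 0.42 (adjusted p = 0.000668), and 2.18 (adjusted p = 0.000285) without 976 and 982. The part of choroid plexus transcripts in the level of Gpc4 in those libraries was not tested.

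Gpc6 (ENSMUSG00000058571, chromosome 14, 116925315 to 117976544, plus strand) encodes glypican 6, which acts like glypican 4. It stood at 9.87, 16.4, 5.46, 12.6 and 7.87 CPM in the fraction libraries 88, 92, 976, 981 and 982, against 4.16, 3.34, 2.87, 3.99 and 3.08 CPM in the inputs. The lowest fraction library, 976, was above the highest input, 88. The log2 fold change was 1.52 ± 0.29 (adjusted p = 0.000167), with differences within numbers between 0.91 and 2.27.

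Gpc5 was more enriched than Gpc6, by 1.49 ± 0.23 on the log2 scale (exact permutation p = 0.00794, adjusted 0.0212, and 0.0714 when paired, with 5 of 5 numbers positive). Against Gpc4 its excess was 1.0 ± 0.48 and missed the threshold (exact permutation p = 0.0714, adjusted 0.114). Gpc6 and Gpc4 differed in enrichment by -0.49 ± 0.62 (exact permutation p = 0.452, adjusted 0.452) with unpaired labels. Within numbers, Gpc6 was less enriched than Gpc4 in 5 of 5, by 0.22 to 0.85 (paired SE 0.12), and Gpc5 more enriched than Gpc4 in 5 of 5, by 0.42 to 1.51 (paired SE 0.24). Paired by number, each of these had an exact permutation p = 0.0625, the smallest that 5 pairs can give, and 0.0714 adjusted.

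The make-up of the glypican family differed between fraction and input. Per kb of exon, Gpc5 made up 79.8 ± 4.12% of the summed level of Gpc1 to Gpc6 in the fraction and 22.6 ± 3.8% in the input. Gpc1, which encodes another glypican and was lower in the fraction (log2 fold change -1.31 ± 0.17, adjusted p = 5.41e-06), made up 12.3 ± 2.99% in the fraction and 66.3 ± 6.53% in the input. Gpc4 held 4.76 ± 1.91% in the fraction and 2.83 ± 1.61% in the input, and Gpc6 1.51 ± 0.581% in the fraction and 1.13 ± 0.244% in the input. The summed level was 107 ± 5.63 CPM per kb in the fraction and 48.7 ± 3.16 in the input. An opposite-strand gene covers 18.9% of the exon bases of Gpc1, and a same-strand gene 55.6% of those of Gpc2, so their parts are uncertain.

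**Figure D2:**
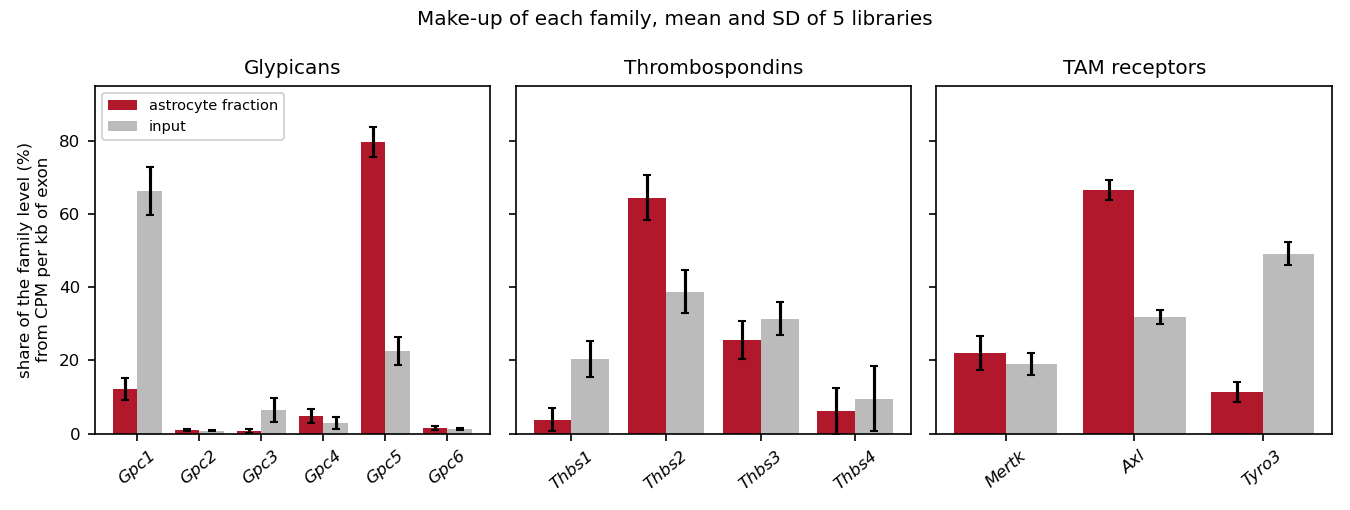
Share of each gene in the summed level of its family (percent, from CPM per kb of exon), astrocyte fraction left and input right of each pair. Bars are means and error bars SD of 5 libraries; Gpc5 holds 79.8% of the glypican level and Thbs2 64.4% of the thrombospondin level in the fraction.

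The thrombospondins behaved unlike each other. Thbs2 (ENSMUSG00000023885, chromosome 17, 14665500 to 14694262, minus strand) encodes thrombospondin 2, a trimer. It stood at 47.8, 59.0, 46.9, 48.3 and 62.8 CPM in the fraction libraries 88, 92, 976, 981 and 982, against 8.42, 9.36, 7.56, 8.86 and 7.58 CPM in the inputs. The groups did not overlap, and the log2 fold change was 2.65 ± 0.11 (adjusted p = 5.71e-10), just under the range of the astrocyte markers.

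Thbs1 (ENSMUSG00000040152, chromosome 2, 118111876 to 118127133, plus strand) encodes thrombospondin 1, the closest relative of thrombospondin 2. It stood at 1.8, 2.64, 6.70, 0.73 and 1.85 CPM in the fraction libraries 88, 92, 976, 981 and 982, against 3.95, 3.68, 4.46, 4.62 and 2.37 CPM in the inputs. The fraction was lower in 4 of 5 numbers and higher in 976, and the groups overlapped. The log2 fold change was -0.46 ± 0.52 (adjusted p = 0.389), and the difference of mean log2 CPM, to which the error belongs, was -0.77. Without the fraction library 976 it was -1.12 (adjusted p = 0.00780), and without numbers 976 and 982 it was -1.28 (adjusted p = 0.0218), where 36.1% and 32.8% of tested genes were called lower (34.1% and 32.9% higher).

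Thbs4 (ENSMUSG00000021702, chromosome 13, 92751590 to 92794818, minus strand) encodes thrombospondin 4, a pentamer. It rested on few counts, with 26, 1, 119, 6 and 147 in the fraction libraries 88, 92, 976, 981 and 982, against 16, 6, 42, 9 and 67 in the inputs. The levels were 1.06, 0.29, 4.75, 0.26 and 6.65 CPM in the fraction, against 0.50, 0.18, 1.55, 0.37 and 2.37 CPM in the input. Both groups were high in 976 and 982 and low in the other numbers. The fraction was higher in 4 of 5 numbers, but the groups overlapped, and the log2 fold change of 1.41 ± 1.08 was not called (adjusted p = 0.168). The difference of mean log2 CPM, to which this error belongs, was 0.82. With the title number as a block the log2 fold change was 1.03 and was called (adjusted p = 0.0156), which made 9 of the 10 genes higher, against 33.3% of tested genes. Without 976 and 982 it was 0.77 (adjusted p = 0.243). The choroid plexus marker Ttr stood at 11036 and 2312 CPM in the fraction libraries 976 and 982, against 2965 and 604 CPM in their inputs, and at most 11.5 CPM in the other libraries. Its part in the level of Thbs4 was not tested.

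**Figure D3:**
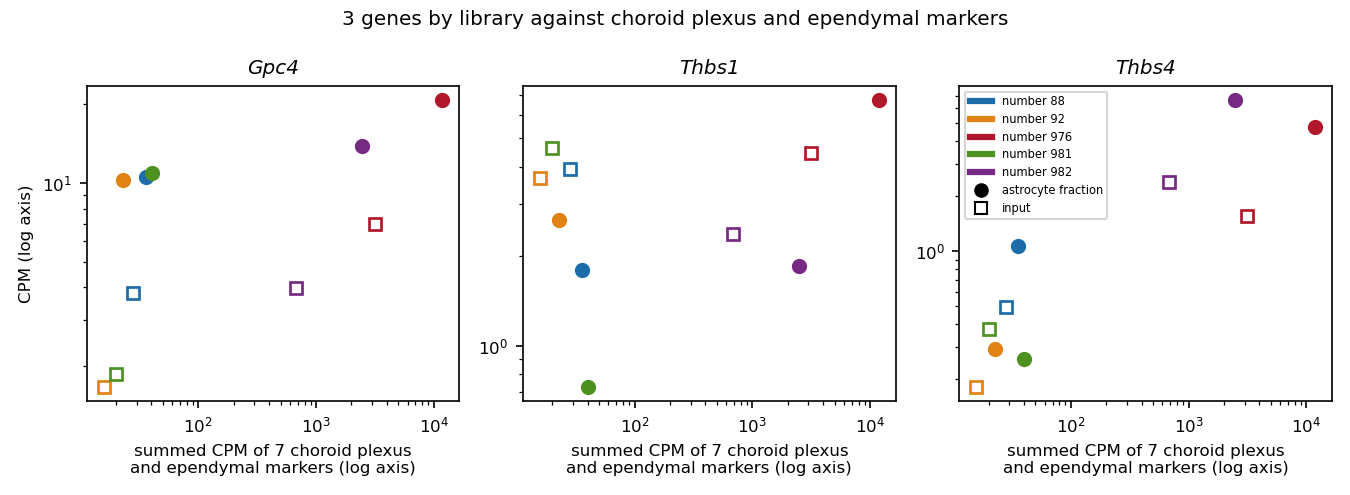
CPM of Gpc4, Thbs1 and Thbs4 (log axis) against the summed CPM of 7 choroid plexus and ependymal markers (log axis), 1 point per library. Filled circles are the astrocyte fraction and open squares the input, coloured by title number; Thbs4 is highest in numbers 976 and 982 in both groups, and Gpc4 and Thbs1 are highest in the fraction library 976.

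Thbs2 was more enriched than Thbs1, by 3.42 ± 0.53 on the log2 scale (exact permutation p = 0.00794, adjusted 0.0212, and 0.0714 when paired, with 5 of 5 numbers positive). The log2 ratio of Thbs2 to Thbs1 was between 2.79 and 5.90 in the fraction and between 0.75 and 1.64 in the input. The enrichment of Thbs4 differed by 1.59 ± 1.02 from that of Thbs1 (exact permutation p = 0.159) and by -1.83 ± 1.10 from that of Thbs2 (exact permutation p = 0.143), both with an adjusted value of 0.181. Within numbers, Thbs4 was more enriched than Thbs1 in 5 of 5 and less than Thbs2 in 5 of 5. The paired SEs were 0.25 and 0.31 (exact permutation p = 0.0625 each, the smallest possible). These rest on few counts, with 1 of Thbs4 and 9 of Thbs1 in the fraction library 92, and 6 and 17 in 981. Per kb of exon, Thbs2 made up 64.4 ± 6.17% of the level of Thbs1 to Thbs4 in the fraction and 38.7 ± 5.93% in the input. Thbs1 held 3.82 ± 3.18% in the fraction and 20.3 ± 4.96% in the input. Thbs3, the gene of another pentameric thrombospondin, rose as well (log2 fold change 1.59 ± 0.15) and held 25.6 ± 5.2% in the fraction and 31.4 ± 4.50% in the input.

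Both engulfment receptors were higher in the fraction. Megf10 (ENSMUSG00000024593, chromosome 18, 57133090 to 57297467, plus strand) encodes a receptor with many EGF-like repeats that binds complement C1q. It stood at 139, 163, 85.1, 149 and 129 CPM in the fraction libraries 88, 92, 976, 981 and 982, against 42.3, 44.1, 30.6, 33.3 and 33.3 CPM in the inputs. The fraction library 976 was the lowest of its group and still above every input. The log2 fold change was 1.85 ± 0.19 (adjusted p = 6.10e-07).

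Mertk (ENSMUSG00000014361, chromosome 2, 128698956 to 128802894, plus strand) encodes a TAM receptor kinase that binds dying cells and synapses through the ligands GAS6 and protein S. It stood at 116, 170, 94.2, 108 and 95.7 CPM in the fraction libraries 88, 92, 976, 981 and 982, against 31.1, 27.3, 22, 24.7 and 19.4 CPM in the inputs. The groups did not overlap, and the log2 fold change was 2.22 ± 0.19 (adjusted p = 2.19e-07). Microglia also express Mertk, and the summed level of 8 microglia markers was 53.2 to 68.8 CPM in the fraction and 331 to 445 CPM in the input. The enrichment of Mertk exceeded that of Megf10 by 0.38 ± 0.14 on the log2 scale, which missed the threshold after adjustment (exact permutation p = 0.0397, adjusted 0.0794).

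Among TAM receptors, Axl was the most abundant per kb in the fraction and Tyro3 in the input. Axl, whose kinase binds GAS6, rose to 408 ± 39.1 CPM in the fraction, against 48.4 ± 1.31 CPM in the input (log2 fold change 3.07 ± 0.07, adjusted p = 5.08e-11). Per kb of exon, Axl made up 66.6 ± 2.71% of the TAM level in the fraction and 31.9 ± 1.94% in the input. Mertk held 22 ± 4.73% in the fraction and 18.9 ± 3.04% in the input. Tyro3 held 11.3 ± 2.69% in the fraction and 49.2 ± 3.10% in the input. It was not called at a log2 fold change of -0.12 ± 0.15 (adjusted p = 0.401), and it was lower at -0.41 (adjusted p = 0.0149) with libraries scaled to total counts.

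**Figure D4:**
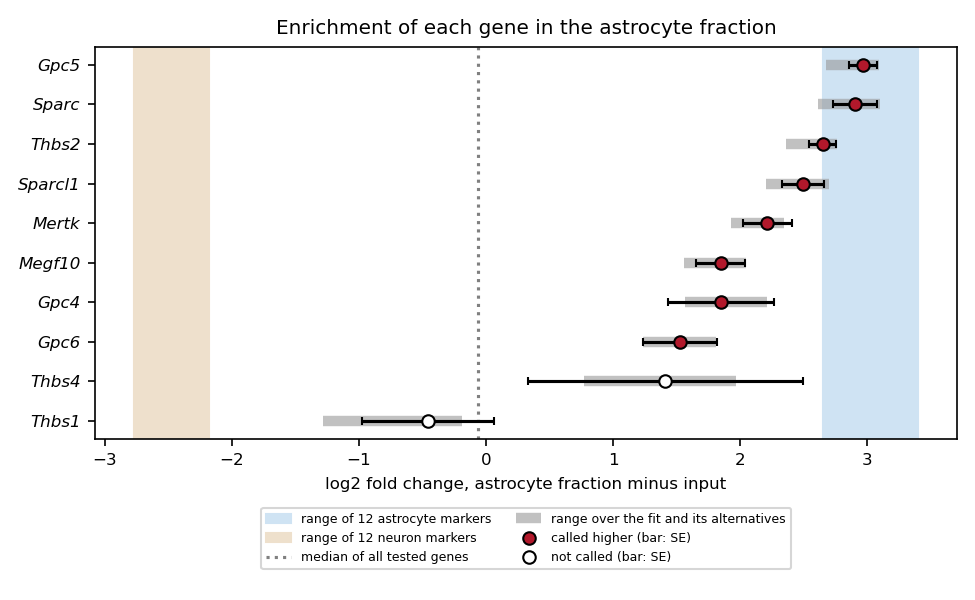
Log2 fold change (astrocyte fraction minus input) of the 10 genes, with SE bars from log2 CPM of 5 libraries per group and grey bars for the range over all settings tried. The blue and tan bands are the ranges of 12 astrocyte and 12 neuron markers; Gpc5 (2.96) and Sparc (2.90) lie inside the astrocyte band and Thbs1 (-0.46) near the median of all genes.

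In the astrocyte fraction the order of mean level per kb of exon was Sparcl1, Sparc, Gpc5, Mertk, Megf10, Thbs2, Gpc4, Gpc6, Thbs4 and Thbs1. Gpc5 stood at 85.4 ± 8.13 CPM per kb, Mertk at 27.0 ± 7.18, Megf10 at 17.2 ± 3.84 and Thbs2 at 7.56 ± 1.05 in the fraction. Neighbours whose ranges overlapped in the fraction were Sparcl1 with Sparc, Thbs2 with Gpc4, Gpc6 with Thbs4 and Thbs4 with Thbs1. In the input Mertk overlapped with Megf10, Gpc4 with Thbs2, Thbs1 with Gpc6 and Gpc6 with Thbs4. The libraries also differed among themselves in a shared way. The fraction library 92 was highest, and 976 lowest, for Sparcl1, Sparc, Gpc6, Megf10 and Mertk. Gpc4 ran the other way, with 976 highest and 92 lowest. Thbs1 was highest in 976, Thbs2 and Thbs4 in 982, and Gpc5 in 981. The summed level of 12 astrocyte markers was highest in the fraction library 92 (33814 CPM) and lowest in 976 (22677 CPM) as well, against 3679 to 4096 CPM in the inputs.

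Genes whose deviations from the group means ran most like those of each factor were named by a fixed rule over the 10 libraries. They were Golph3l and Fam45a for Sparc, Cpe and Cep170 for Sparcl1, Sdhd and Ybx1 for Gpc4, Senp1 and Xrn2 for Gpc5, and Abi2 and Scd2 for Gpc6. They were Znrf2 and Epb41 for Thbs1, Slc36a1 and Bri3bp for Thbs2, Cactin and Vim for Thbs4, Arhgef7 and Itih5 for Megf10, and Kif5b and Inpp5f for Mertk. Pearson's r of the 20 pairs was between 0.945 and 0.985 over the 10 libraries, which differ in depth and share title numbers in pairs. The pairs were picked by this same r from many genes, so high values follow from the choice. Without 976 and 982 r was between 0.328 (Gpc5 with Senp1) and 0.999 (Gpc6 with Scd2), over 6 libraries, and 14 of 20 pairs stayed at 0.9 or above.

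Partners of these factors were read through lists. Over all tested genes 33.1% were higher, 37.5% lower and 29.4% not called. Among 21 receptors and partners 15 were lower and 5 higher, 1 had no call, and the median log2 fold change was -1.05. Cacna2d1, the thrombospondin receptor, fell to 15.7 ± 4.84 CPM in the fraction, against 95.7 ± 15.0 CPM in the input (-2.67 ± 0.20, adjusted p = 2.42e-08). Cacna2d3, the gene of a related subunit, fell by 2.62 and the neurexin gene Nrxn3 by 2.35 on the log2 scale. The AMPA receptor subunits went opposite ways. Gria1 rose to 917 ± 209 CPM in the fraction, against 293 ± 22.1 CPM in the input (1.64 ± 0.17, adjusted p = 4.06e-07), and Gria2 fell to 52.1 ± 4.45 CPM in the fraction, against 212 ± 23.2 CPM in the input (-2.03 ± 0.09). On the hevin side, the neuroligin gene Nlgn1 was called higher (0.38 ± 0.14, adjusted p = 0.0170). The Nlgn1 call was lost with total count scaling (0.09, adjusted p = 0.501), the 5 CPM filter (adjusted p = 0.0574), limma (0.0611) or without number 92 (0.0595). On the glypican 4 side, the phosphatase receptor gene Ptprd (-1.06 ± 0.16) and the pentraxin gene Nptx1 (-1.91 ± 0.65, adjusted p = 0.00778) were lower.

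Other synapse organizers numbered 21 among tested genes, of which 11 were higher and 6 lower while 4 had no call (median 0.38). The shares over all tested genes were 33.1% higher, 37.5% lower and 29.4% not called. The proteoglycan genes Bcan (2.79) and Ncan (1.90) and the adhesion gene Hepacam (2.58) were higher, and Nlgn2, a neuroligin of inhibitory synapses, was lower (-1.09). Among 6 relatives of SPARC, 2 were higher, 3 lower and 1 not called. The testican genes Spock3 (-2.89), Spock1 (-2.12) and Spock2 (-1.78) were lower, and the secreted follistatin relative Fstl1 was higher (0.83). Of 10 genes of heparan sulfate synthesis and glypican release, 4 were higher, 3 lower and 3 not called, with 2 higher when scaled to total counts. That split is near the shares over all tested genes. The polymerase genes Ext1 (1.07) and Ext2 (0.34) and the sulfotransferase gene Ndst1 (0.63) were higher. With total count scaling the Ext2 call was lost (0.05, adjusted p = 0.541). The protease gene Adamts4 fell to 5.26 ± 1.24 CPM in the fraction, against 46.9 ± 3.11 CPM in the input (-3.10 ± 0.15).

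Engulfment genes were read in a pair of lists, whose difference was not tested. Over all tested genes 33.1% were higher and 37.5% lower. Of 22 genes for ligands, receptors and adaptors of engulfment, 16 were higher and 5 lower while 1 had no call (median 1.07), and 3 were lower without the fraction library 981. Pros1, the gene of the MERTK ligand protein S, rose to 60.4 ± 7.85 CPM in the fraction, against 13.9 ± 0.965 CPM in the input (2.12 ± 0.10). Gas6 was higher by 0.93 ± 0.29 (adjusted p = 0.0110, and 0.0658 when scaled to total counts). The bridging protein gene Mfge8 (2.93) and the Rac activator gene Dock1 (2.0) rose, and the macrophage scavenger receptor gene Stab1 fell by 3.29. Of 13 complement and microglial genes, 11 were lower and 1 higher while 1 had no call (median -3.64). The C1q genes C1qa (-4.34) and C1qb (-4.29), which encode chains of a MEGF10 ligand, and the chemokine receptor gene Cx3cr1 (-3.64) were lower. The complement gene C4b was higher (2.06 ± 0.30, adjusted p = 7.73e-05).

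**Figure D5:**
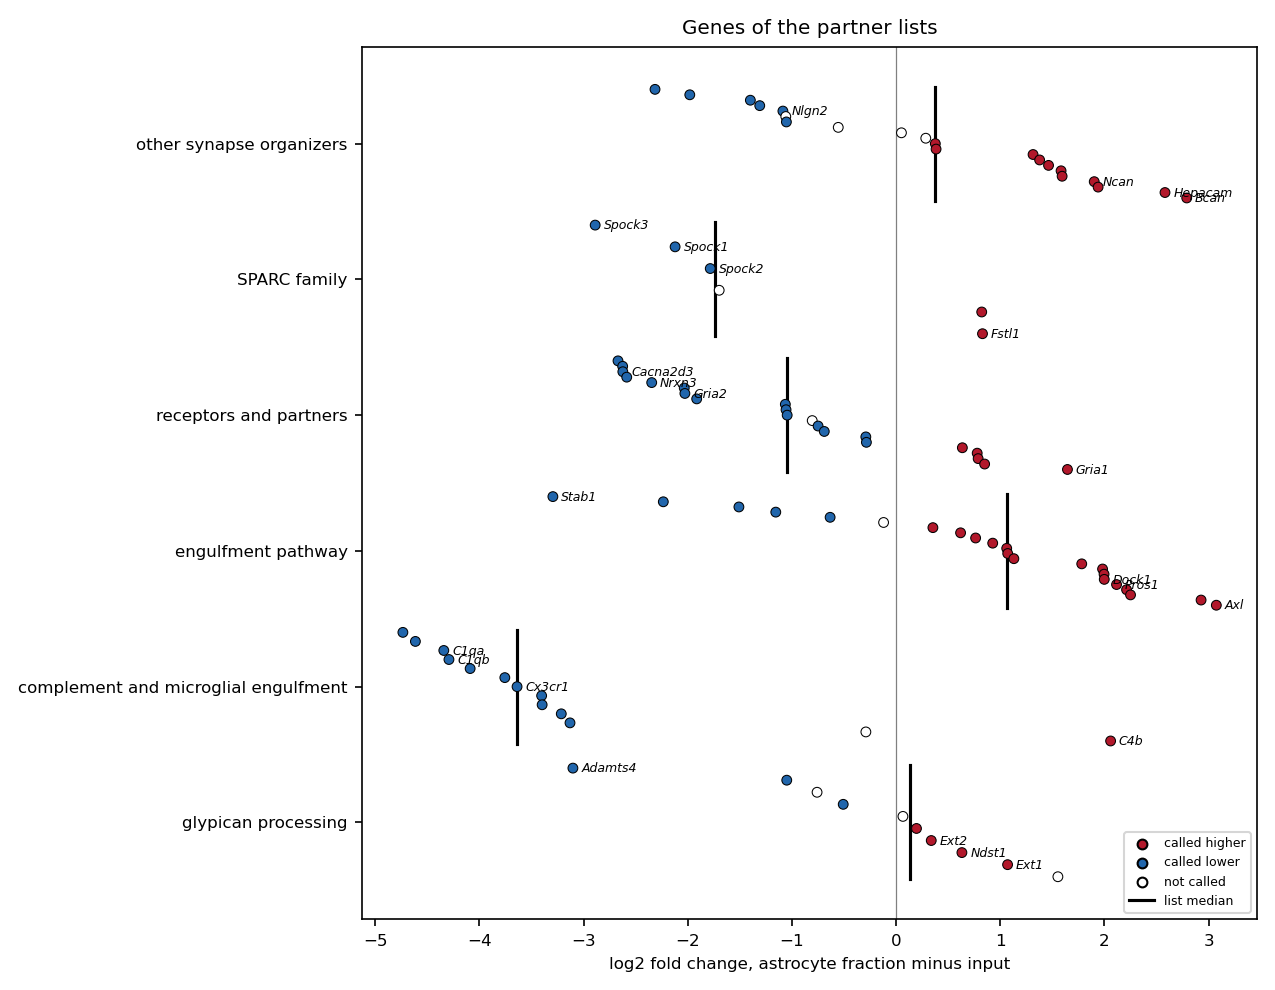
Log2 fold change (astrocyte fraction minus input) of each tested gene in 6 partner lists, 1 point per gene, with the list median as a black line. Red points were called higher and blue points lower. In these lists 16 of 22 engulfment genes are higher and 11 of 13 complement and microglial genes lower. Over all tested genes 33.1% were higher and 37.5% lower.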

How the data were processed

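Deposited values were 1 table of 18464 genes by 10 libraries. The authors deposited raw expected counts, which are estimated, unscaled counts per gene on mm10, and normalized log2 values centred on the input, per the file headers and the values. Per the submitters' processing notes, CASAVA 1.8 and DESeq were used, with no role stated. Aligner, counter and strand setting: not given in the sources used here.

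Expected counts were rounded and tested with edgeR 4.0.16 (R 4.3.3): TMM, filterByExpr with a minimum count of 10 (17672 genes kept, 792 removed, all 10 members kept), robust quasi-likelihood test, prior count of 2, group as the term. The main fit thus did not pair libraries by title number. The test was checked on simulated data. CPM uses TMM-scaled library sizes, and SEs come from log2 CPM. Pairs of members were compared by exact permutation of library labels (252 regroupings, or 32 sign flips within title numbers as an alternative added later). Levels per kb use the union of GENCODE M21 exons, and 9 of 10 members have identical coordinates there (not Thbs2). Orders and family shares per kb therefore depend on annotated length, and the transcripts in use were not measured. A count of 0 would allow up to 3 counts, which is 0.880 CPM in the shallow fraction library 92 and otherwise 0.0912 to 0.136 CPM, counting error only.

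Libraries with the same title number deviated from their group means together, with correlations of 0.189 to 0.493 (mean 0.317). For different numbers they were -0.317 to 0.302 (mean -0.079), so the ranges overlapped. Centring on group means ties the second mean to the first, so it is no independent comparison. Of 5 astrocyte fraction libraries, 4 were closest to the input of their own number. The number was read as a pairing on this basis. Alternatives were DESeq2 1.42.0, its size factors, total counts, other filters, the block, limma 3.58.1 on the authors' values, and libraries left out. The members and lists were chosen with earlier results of these data known. Named were all members, from each partner list up to 3 called genes of the main direction and 1 of the other by adjusted p, and for each member the 2 genes of the upper 50% by level with the most similar deviations. Gpc1, Thbs3, Tyro3, Cacna2d1, Nlgn1, Ptprd, Nptx1, Gas6 and Mfge8 were named for their role after their values were seen. One further partner gene is not reported here.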

Additional observations from a re-analysis of the deposited data

Results flagged for a closer look

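Among 44 genes read in both groups, 5 values stood apart from the other 4 libraries of their group (Dixon's 95% limit), and chance flags about 1 in 20 groups. In the astrocyte fraction library 976, Nrxn3 was at 36.4 CPM (others 45.7 to 49.3) and Gria2 at 44.2 CPM (others 53.4 to 55). Gas6 was at 526 CPM in that library (others 209 to 278), which is the library with the most choroid plexus transcripts, whose part in it was not tested. Cacna2d1 was at 24.1 CPM in the shallow astrocyte fraction library 92 (others 12.3 to 15.5). In the input library 88, C1qa was at 63.1 CPM (others 37.4 to 44.5). None of the 10 synapse and engulfment factors had such a value.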

How the results depend on the processing

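For the 10 factors and 34 partner genes, 834 fold changes under up to 19 settings kept their direction, 824 of them with the same call. Higher factors numbered 8 under every setting except the replicate block, with 9, and lower factors 0 to 1 over libraries left out singly. One was lower without numbers 976 and 982. Pairing by the block changed the call of Thbs4 (1.03, adjusted p = 0.0156) among the 10 factors. The 5 CPM filter removed Thbs1 and Thbs4. Over all genes, higher genes made up 46.9% of calls, 34.0% with total count scaling, where the median log2 fold change was -0.34 in place of -0.06, and 43.4% with limma on the authors' values (median -0.19). Without 976 and 982, the differences within families were -0.42 for Sparcl1 minus Sparc, 1.22 for Gpc5 minus Gpc6 and 3.89 for Thbs2 minus Thbs1. Those 3 against 3 libraries allow no exact p under 0.1. Without number 92 they were -0.40, 1.69 and 3.50 (adjusted exact permutation p = 0.0762 each, where 4 against 4 allow 0.0286 unadjusted). With single libraries left out they were -0.47 to -0.38, 1.35 to 1.66 and 3.09 to 3.86, all called. Pairing by title number, chosen after seeing the data, left the differences at -0.42, 1.49 and 3.42 with one sign in 5 of 5 numbers (adjusted exact permutation p = 0.0714 each, where 5 pairs cannot go below 0.0625 unadjusted). Mertk minus Megf10 was 0.29 to 0.44 and called without the astrocyte fraction library 981 (0.44) or 982 (0.44). Thbs4 had 1 count in the shallow astrocyte fraction library 92.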
